A study of Homo sapiens with 15 samples.

Results

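UKE-1 is an established human leukaemia line of haematopoietic origin that arose from a myeloproliferative neoplasm, and the cells compared here had either TNF-α with 2 drugs, MCL and ruxolitinib, or nothing. The comparison holds 3 libraries of cells with TNF-α and both drugs and 3 libraries of untreated cells, chosen by the treatment in their labels, which is 6 of the 15 libraries of the series. The other 9 libraries, used for values set beside these, come from cells with TNF-α and MCL, with TNF-α and ruxolitinib, and with TNF-α alone, 3 of each. The labels of the drug groups name only the drug, and that these cells had TNF-α before the drugs comes from the design text of the series. MCL is taken as micheliolide, the plant sesquiterpene lactone in the series title, and ruxolitinib inhibits the kinases JAK1 and JAK2. RNA was taken 3 h after treatment in every group. The sources state neither doses, nor how long TNF-α acted before the drugs, nor whether replicates were grown apart. The p-values below weigh group differences against the spread within groups, estimated over all 15 libraries, and that spread may be technical. The question is which genes stood at the untreated level once TNF-α and both drugs were present, which stayed above it and which lay under it.

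TNF-α signals through its receptors to the transcription factor NF-kB, which turns on chemokine, adhesion and survival genes together with its own inhibitors, and NF-kB also drives cytokines that act back on the cell through JAK kinases and STAT factors. STAT factors switch on the interferon-stimulated genes, and STAT5 and STAT3 switch on cytokine feedback, cell cycle and survival genes, which makes JAK inhibitors useful in myeloproliferative neoplasms. Reactive compounds, misfolded proteins and amino acid or redox stress are read by other factors, among them NRF2 for antioxidant genes, HSF1 for heat shock chaperones and ATF4 for the integrated stress response.

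Library totals lay between 15476399 and 18035604 counts, and 16146 of 58735 genes passed a filter on low counts and were tested. Levels are CPM, counts relative to library size after scaling between libraries, and differences are log2 fold changes, cells with both drugs over untreated cells, from edgeR's quasi-likelihood test with an adjusted p under 0.05 as the threshold. Reads of genes that overlap on opposite strands cannot be told apart here, which among the genes with values here touches ARHGAP31, BCL2L1, CBFA2T3, CCNA2, CCND1, CDC25C, CIITA, CISH, DDIT3, DNAJB1, DNAJB9, DUSP6, FOSL2, FTH1, GATA2, HK2, HSF1, HSP90AA1, IFIT1, IFIT3, IL6ST, IRF1, MAFG, NFE2L2, PELI1, PRDX1, PTGER4, RRN3, SH2B3, SLC7A11, SNAI3, SOCS1, SOCS2, SQSTM1, STAT5B and TNFAIP3. Every haematopoietic marker examined, 15 of 15, had counts in these 6 libraries, and their summed level was 4404.7 to 4553.5 CPM with both drugs and 5551.8 to 5618.3 CPM in untreated cells. For monocytes and granulocytes 13 of 14 markers had counts (ELANE was at 0), with sums of 153.8 to 170.1 CPM with both drugs and 265.7 to 274.9 CPM in untreated cells. For lymphocytes 11 of 12 had counts (MS4A1, the gene of CD20, was at 0), with sums of 53.3 to 63.2 CPM and 71.6 to 81.4 CPM in the same order of groups. For fibroblasts, epithelium and endothelium 10 of 13 had counts (EPCAM, LUM and CDH1 were at 0), with sums of 278.6 to 289.2 CPM with both drugs and 403.3 to 416.5 CPM in untreated cells. A single read was enough to have counts. Fewer markers passed the filter on low counts, 14 of 15, 5 of 14, 8 of 12 and 5 of 13 in the order of these lists. The mitochondrial chromosome held 4.21% to 4.46% of the counts with both drugs and 5.10% to 5.32% in untreated cells. The part of these shifts in the results was not tested, and in bulk RNA fewer cells of a type and less RNA per cell cannot be told apart.

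Treatment with TNF-α and both drugs did not leave the cells at the untreated state. Of the 16146 genes tested, 4569 (28.3%) were higher and 4706 (29.1%) were lower than in untreated cells, and 57.4% passed one way or the other. Scaling by library totals turned the order of these 2 counts round, to 5063 higher and 4242 lower. At least 2-fold differences were fewer, 923 genes (5.72%) higher and 1150 genes (7.12%) lower. The 3 libraries with both drugs lay wholly above the 3 untreated ones for 30.7% of genes and wholly under them for 31% of genes. The median log2 change over all genes was -0.0016. Spread between libraries was small, with a biological coefficient of variation of 0.0404, so that differences well under 2-fold passed.

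Among protein-coding genes that averaged at least 5 CPM in the higher group, the 12 that rose furthest were HMOX1, TNFSF18, OSGIN1, HSPA1A, SLC7A11, CXCL10, BCL6, CXCL3, DNAJB4, TRIM16L, MARCKS and HSPA1B, a mix of antioxidant, chaperone and TNF-α induced genes. By the same limit the 12 that fell furthest were HES1, RTN4R, FJX1, F2RL3, TFAP4, ELFN2, BATF2, C15orf39, FAM43A, ELMSAN1, SNAI3 and FAM124B. HES1, a repressor of the Notch pathway, had 0.753, 0.764 and 0.724 CPM with both drugs, against 11.1, 9.56 and 10.2 CPM in untreated cells. The libraries with both drugs were all low and did not overlap the untreated ones (log2 change -3.77 ± 0.22 (SE), adjusted p = 4.02e-23). TFAP4, a helix-loop-helix factor that MYC activates, had 4.92, 4.69 and 4.79 CPM with both drugs, against 38.8, 38.9 and 42.1 CPM in untreated cells, again without overlap (log2 change -3.05 ± 0.10 (SE), adjusted p = 4.51e-36). F2RL3 encodes a thrombin receptor of platelets, RTN4R the Nogo receptor and SNAI3 a factor of the Snail family, and their log2 changes were -3.33, -3.47 and -2.97. C15orf39 and ELMSAN1 averaged 27.2 and 19.4 CPM with both drugs, against 217 and 153 CPM in untreated cells.

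**Figure D1:**
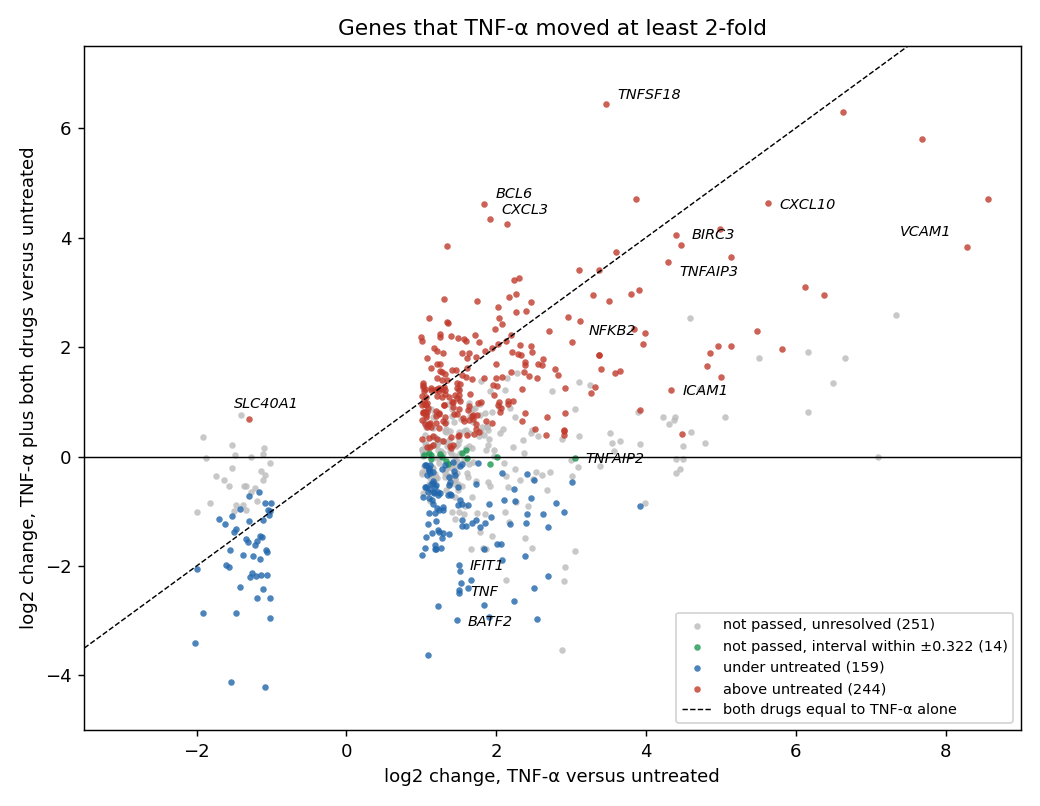
Each point is 1 of the genes that TNF-α alone moved at least 2-fold, with its log2 change under TNF-α on the x axis and its log2 change under TNF-α plus both drugs on the y axis, both against the same untreated libraries. Points near the horizontal line at 0 have a small estimated change from untreated cells, and points on the dashed line kept the change of TNF-α alone. Of the raised genes 243 were above untreated cells, 114 under them, 14 close to them and 224 unresolved. Only genes that did not pass could be called close. An unresolved point near 0 is not shown to lie at the untreated level.

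TNF-α alone raised 595 genes at least 2-fold (3.69% of those tested), and with both drugs these genes spread over the whole range from far above to far under the untreated level. Of the 595, 243 (40.8%) were still above untreated cells, beside 28.3% of all genes, and 114 (19.2%) were under them, beside 29.1% of all genes. The remaining 238 did not pass. Of those, 14 had a 95% interval of the log2 change wholly within 0.322 of 0 and can be called close to untreated. The other 224 had wider intervals and are unresolved. Genes that passed were counted above or under even where their change was small. IFIH1, for example, counts as above at 0.16 ± 0.06 (SE), with libraries that overlapped the untreated ones. The 14 are thus not all of the raised genes near the untreated level. The median log2 change of the 595 genes was 0.39 with both drugs and 1.57 with TNF-α alone. Both values use the same untreated libraries, so a low untreated measurement of a gene raises both. Among the 312 genes of this set that averaged at least 5 CPM in the highest of the 3 groups, 164 were above, 87 under, 14 close and 47 unresolved. Most unresolved genes were thus of low abundance.

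Staying above untreated cells took several forms. Of the 243 genes still above, 133 were lower than with TNF-α alone, 76 did not differ from it past the threshold and 34 were higher. Over all genes, 29.3% were lower and 25.5% higher than with TNF-α alone. The raised genes were chosen by the same TNF-α libraries. A high measurement of a gene there favours a call as lower, so these shares are not like for like. At least 2-fold above untreated cells were 160 of the 595, beside 5.72% of all genes. At least 2-fold under them were 52 of the 595, beside 7.12% of all genes.

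The NF-kB genes as a group stayed above the untreated level. Of 52 listed targets 46 were tested, and with both drugs 33 (71.7%, beside 28.3% of all genes) were higher than in untreated cells. Lower were 7 (15.2%, beside 29.1%), and 6 did not pass. The median log2 change was 1.06 with both drugs and 2.28 with TNF-α alone. Against TNF-α alone, 37 of the 46 were lower and 5 higher, beside 29.3% and 25.5% of all genes. Of the 39 that TNF-α raised at least 2-fold, 28 stayed above, 6 went under and 5 did not pass. Over all 595 genes so raised, 40.8% were above and 19.2% under. Members under the filter on low counts were not tested, and a gene silent in untreated cells passed that filter through the groups where it was on, so these counts describe the tested members and carry no test of the list.

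The feedback inhibitors and subunits of NF-kB differed in how much of their TNF-α rise was left. TNFAIP3 encodes A20, a ubiquitin-editing enzyme that shuts off the TNF receptor complex, and had 115, 111 and 107 CPM with both drugs, 189.9, 189.7 and 182 CPM with TNF-α alone and 8.73, 9.78 and 10.005 CPM in untreated cells. The 3 groups did not overlap, and both drugs left 57.2% of the rise in CPM (log2 change over untreated cells 3.54 ± 0.06 (SE), adjusted p = 3.58e-52). NFKBIA, the gene of the inhibitor IkB-α, had 267, 275 and 284 CPM with both drugs, 475, 485 and 495 CPM with TNF-α alone and 96.8, 90.7 and 94.3 CPM in untreated cells, so 46.4% of the rise was left (log2 change 1.55 ± 0.04 (SE), adjusted p = 1.14e-42). BIRC3, a ubiquitin ligase of the TNF receptor complex, had 99.3, 106 and 106 CPM with both drugs, 157 ± 2.904 CPM (SD, n = 3) with TNF-α alone and 7.48, 6.06 and 7.86 CPM in untreated cells, and kept 64.5% of its rise. NFKB2 and RELB, the 2 subunits of the noncanonical NF-kB dimer, kept 59.6% and 76.8%. RELB had 145, 142 and 140.1 CPM with both drugs, 180.0 ± 6.26 CPM (SD, n = 3) with TNF-α alone and 18.1, 18.9 and 18.2 CPM in untreated cells (log2 change over untreated cells 2.95 ± 0.05 (SE), adjusted p = 1.02e-49).

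TNIP1, a partner of A20, averaged 199 CPM with both drugs, 452 CPM with TNF-α alone and 108 CPM in untreated cells. BCL3, a nuclear IkB protein, averaged 16.8 CPM with both drugs, 71.9 CPM with TNF-α alone and 7.49 CPM in untreated cells. NFKB1, another subunit, was above untreated cells by 0.75 on the log2 scale with both drugs and by 1.75 with TNF-α alone. NFKBID, also a nuclear IkB protein, was under untreated cells (log2 change -0.44 ± 0.11 (SE), adjusted p = 0.000647).

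ICAM1, the endothelial and leukocyte ligand of β2 integrins, had 42.1, 45.6 and 41.3 CPM with both drugs, 363, 366 and 391 CPM with TNF-α alone and 19.6, 17.6 and 18.2 CPM in untreated cells. It was still higher than in untreated cells with no overlap (log2 change 1.22 ± 0.06 (SE), adjusted p = 9.44e-28), yet only 6.91% of its TNF-α rise was left. VCAM1, the ligand of the integrin VLA-4, had 11, 9 and 15 counts with both drugs, 212, 234 and 254 counts with TNF-α alone and 0, 1 and 1 counts in untreated cells. The ratio of the summed counts over the summed library sizes, both drugs over untreated cells, was 16.6 with a 95% counting interval of 4.27 to 143, which covers counting error only. TRAF1, an adaptor of TNF receptors, and EBI3, a cytokine subunit, were also still higher than untreated cells, with 13.2 and 17.9 CPM with both drugs, 102 and 159 CPM with TNF-α alone and 3.26 and 5.67 CPM in untreated cells.

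Of the raised genes that did not pass, 14 could be shown to lie near the untreated level. TNFAIP2 was the one among them with the largest TNF-α response. TNFAIP2, an early TNF-α response gene, had 233, 237 and 227 CPM with both drugs, 1931, 1942 and 1964 CPM with TNF-α alone and 232, 235 and 239 CPM in untreated cells. The libraries with both drugs and the untreated ones overlapped, and the log2 change of -0.02 had a 95% interval of -0.09 to 0.04 (adjusted p = 0.623). ARHGAP31, a GTPase-activating protein for Rac and Cdc42, had 32.4, 34.99 and 34.8 CPM with both drugs, 139 ± 3.49 CPM (SD, n = 3) with TNF-α alone and 33.4, 35.8 and 34.1 CPM in untreated cells. DDX58 encodes the RNA sensor RIG-I and ZBTB46 a zinc finger factor of dendritic cells, and their log2 changes of -0.13 and -0.02 had intervals of -0.28 to 0.02 and -0.21 to 0.17. TRIP10, SLC5A5 (the sodium iodide symporter), SH3TC1 and ZNF827 completed the 8 with the largest TNF-α response, with log2 changes between -0.14 and 0.13. DDX58 passed as lower without the second library with both drugs (-0.19), and SH3TC1 without the first untreated library (-0.22).

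**Figure D2:**
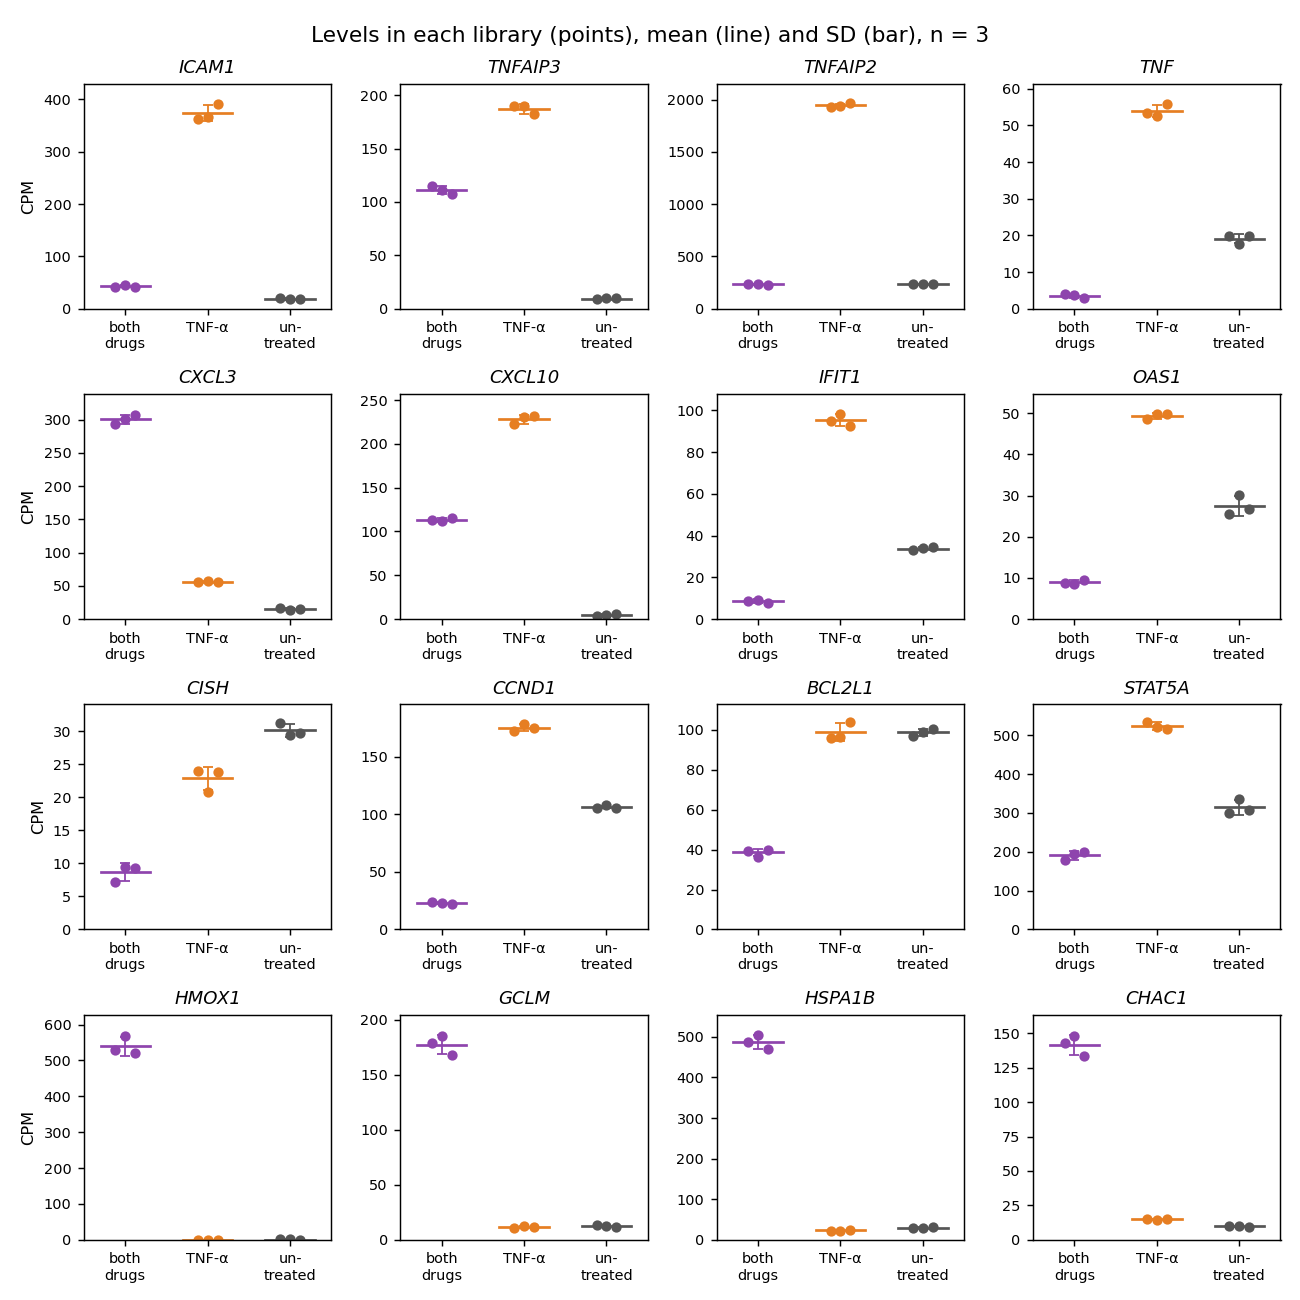
Level in CPM (y axis, from 0, one scale per gene) of 16 genes in each of the 3 libraries with TNF-α plus both drugs, TNF-α alone and no treatment; points are libraries, lines are means and bars are SD. TNFAIP2 stands at its untreated level with both drugs, TNFAIP3 and CXCL10 stay above it, TNF, IFIT1, OAS1, CCND1 and BCL2L1 lie under it, and CXCL3, HMOX1, GCLM, HSPA1B and CHAC1 are highest with both drugs.

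The 34 genes that rose above TNF-α alone were led by a ligand, a repressor and neutrophil chemokines. CXCL3, a chemokine that attracts neutrophils, had 294, 301 and 308 CPM with both drugs, 55.4, 57.5 and 56.3 CPM with TNF-α alone and 16.6, 13.3 and 14.9 CPM in untreated cells. The 3 groups were well apart, with log2 changes of 4.33 ± 0.05 (SE), adjusted p = 4.68e-58 over untreated cells and 2.41 ± 0.05 (SE), adjusted p = 8.95e-49 over TNF-α alone. CXCL8 and CXCL2, of the same family, had log2 changes over TNF-α alone of 0.95 and 0.94. CXCL8 had 129, 126 and 122 CPM with both drugs, means of 134 CPM with TNF-α and MCL, 63.8 CPM with TNF-α and ruxolitinib and 64.9 CPM with TNF-α alone, and 10.9, 12.6 and 15.96 CPM in untreated cells. The libraries with both drugs thus lay near those with MCL (log2 difference -0.09 ± 0.05 (SE), adjusted p = 0.154, 95% interval -0.19 to 0.01) and above those with ruxolitinib (log2 difference 0.98 ± 0.05 (SE), adjusted p = 1.25e-21).

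TNFSF18, the ligand of the T-cell receptor GITR, had 28.9, 32.5 and 32.6 CPM with both drugs, 3.99 ± 0.714 CPM (SD, n = 3) with TNF-α alone and 0.187, 0.667 and 0.179 CPM in untreated cells. Its log2 change over untreated cells of 6.44 ± 0.21 (SE), adjusted p = 7.69e-36 rests on few untreated counts. SQSTM1, the autophagy receptor p62 and a target of both NF-kB and NRF2, had 1319, 1372 and 1281 CPM with both drugs, means of 982, 490.1 and 446 CPM with MCL, with ruxolitinib and with TNF-α alone, and 185, 173 and 183 CPM in untreated cells. Others of the 34 were PTGER4, a prostaglandin E2 receptor (3.22 over untreated cells), PELI1, a ubiquitin ligase of Toll-like receptor signalling (1.99), the chaperone HSPA6 (2.84), ZFP36, which destabilises cytokine mRNAs (1.28), and IL6ST, the shared receptor chain gp130 (1.30).

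Genes that TNF-α raised and both drugs took under the untreated level included TNF itself, both lymphotoxins and interleukin 1β. TNF had 3.88, 3.66 and 2.95 CPM with both drugs, 53.4, 52.7 and 55.8 CPM with TNF-α alone and 19.9, 17.6 and 19.8 CPM in untreated cells. Every library with both drugs was under every untreated one (log2 change -2.45 ± 0.11 (SE), adjusted p = 3.39e-29). IL1B, the gene of interleukin 1β, had 8.86, 9.33 and 9.46 CPM with both drugs, 61.9, 57.8 and 58.8 CPM with TNF-α alone and 24.7, 24.9 and 23.6 CPM in untreated cells, also without overlap (log2 change -1.40 ± 0.08 (SE), adjusted p = 3.91e-23). LTB and LTA, the lymphotoxins, had log2 changes of -1.04 and -0.84 over untreated cells, beside 2.63 and 2.80 with TNF-α alone. TNFRSF4, the receptor OX40, averaged 20.3 CPM with both drugs, 226 CPM with TNF-α alone and 28.2 CPM in untreated cells. Single drugs did not take TNF and LTB so low. TNF averaged 3.497 CPM with both drugs, 31.3 CPM with MCL and 36.8 CPM with ruxolitinib, and LTB averaged 14.7, 64.7 and 101 CPM in the same groups (adjusted p of both drugs against MCL 7.17e-36 and 5.52e-34, against ruxolitinib 1.27e-38 and 3.35e-41).

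Over the TNF superfamily and its receptors, 29 of 35 listed members were tested. Of these, 6 (20.7%, beside 28.3% of all genes) were higher, namely TNFSF9, CD40, TNFSF4, TNFRSF9, FAS and TNFRSF1A. Lower were 17 (58.6%, beside 29.1%), and 6 did not pass. The list does not hold TNFSF18, which belongs to the same family and was higher by 6.44, as given above. The median log2 change of the listed members was -0.45 with both drugs and 0.48 with TNF-α alone. CD40, a costimulatory receptor, had 82.7, 84.1 and 82.5 CPM with both drugs and 24.9, 27.1 and 23.4 CPM in untreated cells (log2 change 1.72 ± 0.06 (SE), adjusted p = 3.81e-36). TNFRSF1B, the second receptor of TNF-α, had 30.5, 31.99 and 32.8 CPM with both drugs and 78.4, 80.8 and 79.7 CPM in untreated cells (log2 change -1.33 ± 0.05 (SE), adjusted p = 6.93e-31). TNFRSF1A, the first receptor, was higher by 0.12 on the log2 scale. Other raised genes far under untreated cells were BATF2, an interferon-induced bZIP factor (-3.00), SP6, a zinc finger factor of the Sp family (-2.74), the receptor tyrosine kinase EPHA2 (-2.26) and the sulfotransferase CHST2 (-1.60). EPHA2 had 1.51, 2.402 and 2.17 CPM with both drugs, a mean of 31.05 CPM with TNF-α alone and 8.61, 9.83 and 10.8 CPM in untreated cells. No library with both drugs reached an untreated one for EPHA2.

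TNFAIP3 and LTB are shown side by side because they hold the same NF-kB letters before the start of the gene and yet ended on opposite sides of the untreated level. The stretches are from RefSeq on GRCh38.p14, chr6:137867162-137867243 on the plus strand and chr6:31582472-31582541 on the minus strand, 5′ to 3′, with matches to the NF-kB motif in capitals.
TNFAIP3: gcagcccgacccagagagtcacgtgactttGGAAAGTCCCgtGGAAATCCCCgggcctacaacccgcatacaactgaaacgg
LTB: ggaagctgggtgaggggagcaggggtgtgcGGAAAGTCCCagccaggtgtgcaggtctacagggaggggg
The capitals of LTB equal the first capitals of TNFAIP3. The motif was searched on both strands as GGG, 2 free bases and the end TTTCC, or that end with A at its start or C in its middle, in 250 bases before to 50 after each start, and of the 12455 tested protein-coding genes 9862 had a sequence. It was found at 30 of 63 starts of the NF-kB list (47.6%) and at 782 of 14460 starts of all tested protein-coding genes (5.41%). Among the genes TNF-α raised at least 2-fold it was found at 49 of 245 starts (20%) of those still above untreated cells and at 14 of 128 starts (10.9%) of those under them. Such matches describe letters and are not shown to be sites in use.

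Interferon-stimulated genes, which TNF-α alone had raised, mostly went under the untreated level. Of 51 listed genes 50 were tested. With both drugs 7 (14%, beside 28.3% of all genes) were higher, 32 (64%, beside 29.1%) lower and 11 did not pass. The median log2 change was -0.36 with both drugs and 0.69 with TNF-α alone. Against TNF-α alone 48 of the 50 were lower, beside 29.3% of all genes. With TNF-α alone 44 members were higher, beside 14.1% of all genes. Of these 44, 7 were above untreated cells with both drugs, 27 under and 10 did not pass. Among the 15 members that TNF-α raised at least 2-fold, 5 were above, 6 under and 4 did not pass. Most of these 15 were thus not under the untreated level.

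IFIT1, which binds foreign RNA caps, had 8.75, 9.28 and 7.63 CPM with both drugs, 94.9, 98.1 and 92.5 CPM with TNF-α alone and 32.9, 33.8 and 34.4 CPM in untreated cells. The group with both drugs was lowest in every library (log2 change over untreated cells -1.98 ± 0.08 (SE), adjusted p = 2.95e-30). IFIT5, IFIT3 and OASL, an oligoadenylate synthetase-like protein, had log2 changes of -2.40, -1.50 and -1.81. OAS1, a sensor of double-stranded RNA, had 8.86, 8.57 and 9.46 CPM with both drugs and 25.6, 30.2 and 26.8 CPM in untreated cells (log2 change -1.62 ± 0.09 (SE), adjusted p = 3.25e-24). For this gene MCL averaged 28.7 CPM and ruxolitinib 15.1 CPM, and both drugs were lower than ruxolitinib (log2 difference -0.75 ± 0.10 (SE), adjusted p = 1.44e-09). OAS2 averaged 50.3 CPM with both drugs, 53.6 CPM with ruxolitinib and 111 CPM in untreated cells, and both drugs against ruxolitinib did not pass (log2 difference -0.09 ± 0.05 (SE), adjusted p = 0.126, 95% interval -0.19 to 0.01).

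The 7 higher members were CXCL10, CXCL11, GBP3, GBP2, STAT2, SP100 and IFIH1. CXCL10, a chemokine for T cells, had 113, 111 and 116 CPM with both drugs, 222, 230.2 and 232 CPM with TNF-α alone and 3.99, 4.44 and 5.3002 CPM in untreated cells. It kept 48.7% of the rise (log2 change over untreated cells 4.63 ± 0.07 (SE), adjusted p = 5.53e-54), and CXCL11, of the same receptor, kept 33.9%. The chemokine pair stood apart from the antiviral genes in size, since the log2 changes of the other 5 lay between 0.16 and 1.15. IRF1, an interferon regulatory factor that NF-kB drives, was higher with both drugs at 17.03, 20.1 and 14.6 CPM, against 9.73, 6.83 and 9.47 CPM in untreated cells (log2 change 1.00 ± 0.11 (SE), adjusted p = 2.5e-11).

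The stretches before IFIT1 and IFIT5 are shown because both carry paired interferon response letters. They are chr10:89392477-89392559 and chr10:89414493-89414567, both on the plus strand of GRCh38.p14 from RefSeq, with matches on either strand to GAAA, 2 free bases and GAAA in capitals.
IFIT1: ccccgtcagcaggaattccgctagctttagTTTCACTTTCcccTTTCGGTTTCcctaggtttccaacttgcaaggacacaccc
IFIT5: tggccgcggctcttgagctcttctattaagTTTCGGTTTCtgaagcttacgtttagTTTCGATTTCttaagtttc
This motif was found at 29 of 50 starts of the interferon list (58.0%) and at 450 of 14460 starts of all tested protein-coding genes (3.11%).

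The JAK and STAT genes themselves showed no shared direction. Of 33 tested members of the pathway list (35 listed), 15 were higher (45.5%, beside 28.3% of all genes), 9 lower (27.3%, beside 29.1%) and 9 did not pass, with a median log2 change of 0.19. STAT5A had 178, 195 and 199 CPM with both drugs, 534, 521 and 515 CPM with TNF-α alone and 299.8, 335 and 307 CPM in untreated cells, so it was above untreated cells with TNF-α alone and under them with both drugs (log2 change -0.72 ± 0.04 (SE), adjusted p = 2.03e-20). STAT5B had 66.5, 64.4 and 59.5 CPM with both drugs, a mean of 121 CPM with TNF-α alone and 119, 130.2 and 123 CPM in untreated cells (log2 change -0.97 ± 0.04 (SE), adjusted p = 5.16e-28). STAT3 differed by -0.14 ± 0.03 (SE), with 258 CPM with both drugs and 284 CPM in untreated cells. JAK2 was slightly higher, 40.9, 38.9 and 39.3 CPM with both drugs against 31.99, 34.1 and 34.1 CPM in untreated cells (log2 change 0.25 ± 0.06 (SE), adjusted p = 0.000803). SH2B3, the adaptor LNK that restrains JAK2, PTPN6, the phosphatase SHP-1, and KIT, the stem cell factor receptor, were lower, with log2 changes of -1.07, -1.08 and -1.08, and IL6ST and the interferon gamma receptor gene IFNGR1 were higher by 1.30 and 0.91.

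STAT5 and STAT3 targets were lower in 16 of 31 tested members (51.6%, beside 29.1% of all genes), of 32 listed. Higher were 8 (25.8%, beside 28.3%), and 7 did not pass. The median log2 change was -0.43 with both drugs and 0.42 with TNF-α alone. CISH, a feedback inhibitor of cytokine receptors and a standard readout of STAT5, had 7.13, 9.498 and 9.35 CPM with both drugs, 23.99, 20.8 and 23.8 CPM with TNF-α alone and 31.2, 29.4 and 29.8 CPM in untreated cells. The libraries with both drugs were lowest without overlap (log2 change -1.79 ± 0.10 (SE), adjusted p = 4.34e-23). CCND1, the gene of cyclin D1, had 23.4, 23.3 and 21.7 CPM with both drugs, 172, 178 and 175 CPM with TNF-α alone and 106, 108 and 105 CPM in untreated cells (log2 change -2.22 ± 0.05 (SE), adjusted p = 2.15e-44). MCL left CCND1 at 106 CPM and ruxolitinib at 75.8 CPM, both above the 22.8 CPM with both drugs (log2 differences -2.21 ± 0.05 and -1.73 ± 0.05 SE). CCND2 and CCND3, the other D-type cyclins, fell by 1.72 and 1.09 on the log2 scale.

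MYC, the growth-driving transcription factor, had 125, 137 and 137 CPM with both drugs, 329.9, 323 and 327 CPM with TNF-α alone and 456, 469.9 and 468 CPM in untreated cells, with no overlap of the 3 groups (log2 change over untreated cells -1.80 ± 0.04 (SE), adjusted p = 1.7e-46). BCL2L1, which encodes the survival protein BCL-XL, had 39.3, 36.5 and 39.9 CPM with both drugs, 96.1, 96.6 and 104 CPM with TNF-α alone and 96.9, 98.7 and 100.5 CPM in untreated cells (log2 change -1.36 ± 0.05 (SE), adjusted p = 3.2e-32). TNF-α alone and untreated cells overlapped for this gene, and each single drug gave an intermediate level, 62.2 CPM with MCL and 64.9 CPM with ruxolitinib. GFI1B, a repressor of blood progenitors, and ID1, an inhibitor of helix-loop-helix factors, fell by 2.10 and 2.03 on the log2 scale. OSM, the cytokine oncostatin M, had 0.174, 0.164 and 0.390 CPM with both drugs and 2.43, 2.94 and 1.91 CPM in untreated cells, a low level in every library (log2 change -3.29 ± 0.43 (SE), adjusted p = 1.69e-09).

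Among the feedback genes of the list, SOCS3 fell (log2 change -1.20 ± 0.26 (SE), adjusted p = 6.72e-05), and 2 others did not pass. SOCS2 had 31.6, 27.4 and 30.2 CPM with both drugs and 31.9, 29.9 and 29.1 CPM in untreated cells, with a log2 change of -0.03 (95% interval -0.17 to 0.11, adjusted p = 0.775). SOCS1 had 1.39, 0.764 and 0.445 CPM and 1.87, 1.17 and 1.55 CPM in those groups, with a log2 change of -0.81 (95% interval -1.55 to -0.08, adjusted p = 0.0522), and it passes when only the 2 groups are fitted. MCL1, a survival gene of the BCL2 family, had a log2 change of -0.06 and did not pass (95% interval -0.14 to 0.01, adjusted p = 0.124).

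The 8 higher members were BCL6, PIM1, NFIL3, SGK1, BCL3, IRF1, VEGFA and HIF1A. BCL6, a transcriptional repressor that STAT5 is known to hold down, had 11.5, 9.99 and 9.52 CPM with both drugs, 1.18, 1.14 and 2.17 CPM with TNF-α alone and 0.561, 0.389 and 0.298 CPM in untreated cells (log2 change over untreated cells 4.62 ± 0.29 (SE), adjusted p = 1.37e-19). Single drugs gave 2.39 CPM with MCL and 1.67 CPM with ruxolitinib, so the group with both drugs stood far above each. PIM1, a survival kinase, had 78.9, 77.7 and 77.6 CPM with both drugs, 40.5, 42.9 and 43.4 CPM with TNF-α alone and 19.6, 22.1 and 22.6 CPM in untreated cells (log2 change over untreated cells 1.86 ± 0.06 (SE), adjusted p = 3.2e-35). Its relative PIM2 went the other way, with 16.4, 18.2 and 19.7 CPM with both drugs, 60.1, 63.4 and 67.5 CPM with TNF-α alone and 29.9, 26.3 and 29.1 CPM in untreated cells (log2 change -0.65 ± 0.08 (SE), adjusted p = 4.5e-11).

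CISH and BCL6 are shown because both hold STAT letters before the start and lay on opposite sides of the untreated level. The stretches are chr3:50611848-50612024 and chr3:187745469-187745526, both on the minus strand of GRCh38.p14 from RefSeq, with matches to TTCNNNGAA in capitals.
CISH: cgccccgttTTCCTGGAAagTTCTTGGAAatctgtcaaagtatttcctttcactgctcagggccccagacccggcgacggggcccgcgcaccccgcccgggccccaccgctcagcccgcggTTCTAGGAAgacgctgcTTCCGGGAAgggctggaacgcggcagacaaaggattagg
BCL6: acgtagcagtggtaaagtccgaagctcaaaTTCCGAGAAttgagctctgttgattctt
CISH has 4 matches in the window, and for BCL6 the match lies before 1 of its 2 starts in the table. The motif was found at 897 of 14460 starts of all tested protein-coding genes (6.2%) and at 3 of 34 starts of the STAT5 and STAT3 list (8.82%).

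TNF-α alone lowered only 73 genes at least 2-fold (0.452% of those tested), and most stayed under the untreated level with both drugs. Of the 73, 45 were under untreated cells (61.6%, beside 29.1% of all genes), 1 was above and 27 were unresolved. Both values use the same untreated libraries, so a high untreated measurement of a gene lowers both, and the share carries no test. Of the 73, 18 averaged at least 5 CPM in the highest of the 3 groups, and 16 of those were under, 1 above and 1 unresolved. With MCL 47 of the 73 were under and 1 above, beside 16.9% and 17.2% of all genes. With ruxolitinib 47 were under and 0 above, beside 19% and 17.8% of all genes. ADRA2A, the α2A adrenergic receptor, had 11.9, 12.2 and 11.4 CPM with both drugs, 25.97, 30.9 and 30.2 CPM with TNF-α alone and 58.99, 68.4 and 61.2 CPM in untreated cells, so that it lay under both (log2 changes -2.41 ± 0.08 (SE), adjusted p = 2.29e-35 over untreated cells and -1.30 ± 0.09 (SE), adjusted p = 2.15e-20 over TNF-α alone). RAB3A, a GTPase of vesicle release, TRERF1, a transcriptional regulator, and FAM124B fell by 2.59, 2.17 and 2.96 on the log2 scale. The exception was SLC40A1, the iron exporter ferroportin, which had 10.8, 11.9 and 9.58 CPM with both drugs, 2.695, 3.54 and 1.86 CPM with TNF-α alone and 5.3005, 7.4997 and 7.15 CPM in untreated cells (log2 change over untreated cells 0.69 ± 0.15 (SE), adjusted p = 0.000119). Here the direction of TNF-α alone was turned round.

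Many genes that TNF-α alone had not moved differed from untreated cells with both drugs, mostly by less than 2-fold. TNF-α left 5348 genes close to untreated cells, by the same margin of 0.322. Of these, 1893 (35.4%) were higher and 1582 (29.6%) lower with both drugs, beside 28.3% and 29.1% of all genes, and 1691 (31.6%) stayed close. The set holds only genes with narrow intervals, and all 5348 averaged at least 5 CPM in the highest of the 3 groups. Small differences pass more readily for such genes, so the shares of the set and of all genes are not like for like. A gene that passed was counted higher or lower even where its change lay within that margin, such as PRDX1 (log2 change -0.11 ± 0.04 (SE)). Both comparisons also use the same untreated libraries. At least 2-fold changes were rare in this set, 61 genes higher and 71 lower, beside 5.72% and 7.12% of all genes. By the naming rule the 6 highest were DNAJB4, GCLM, BAG3, DNAJB1, PLA2G6 and IPCEF1, and the 6 lowest were HSH2D, FRMD4A, TMEM229B, SEMA7A, CBFA2T3 and OPRL1. SEMA7A, a semaphorin of the leukocyte surface, had 10.2, 9.66 and 9.298 CPM with both drugs and 42.8, 39.7 and 38.8 CPM in untreated cells, and CBFA2T3, a corepressor of blood progenitors, had 34.5, 34.6 and 30.8 CPM and 124, 126 and 122 CPM. Neither gene overlapped between the groups (log2 changes -2.06 ± 0.08 and -1.90 ± 0.05 SE). HMOX1 and OSGIN1 are outside this set of 5348 because their TNF-α intervals were wider than that margin (-1.57 to 0.23 and -0.03 to 0.54), and SLC7A11 because its TNF-α change passed (0.50).

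**Figure D3:**
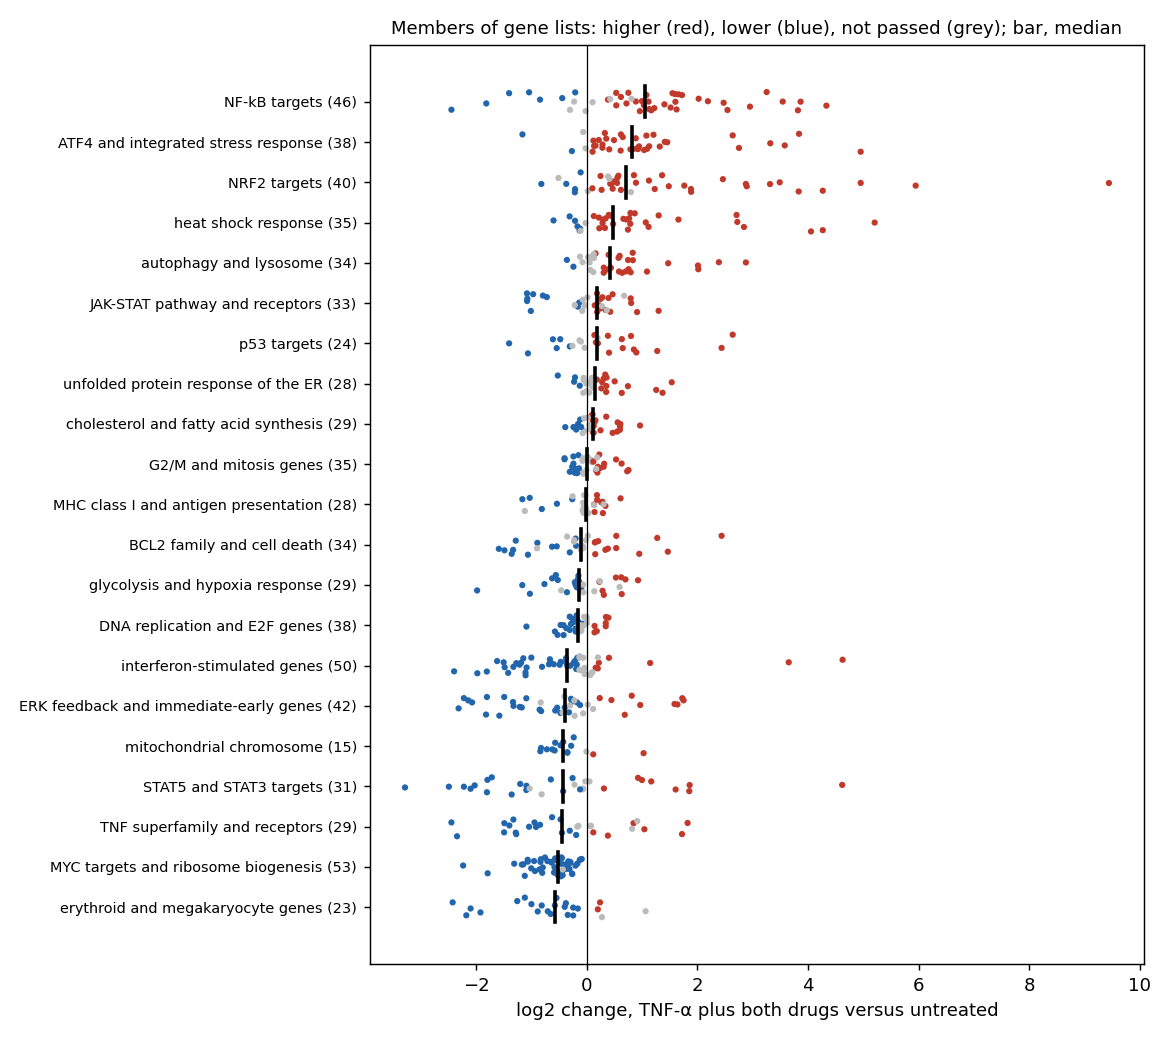
Log2 change, TNF-α plus both drugs over untreated cells (x axis), of every tested member of 21 gene lists, with the number tested in brackets; red points are higher, blue points lower and grey points did not pass, and the black bar is the median. NF-kB, ATF4, NRF2 and heat shock genes lie mostly right of 0, and interferon, ERK, STAT, TNF superfamily, ribosome biogenesis and erythroid genes mostly left of it.

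NRF2 targets held the largest change of the comparison, that of HMOX1. Of 46 listed genes 40 were tested, with 30 (75%, beside 28.3% of all genes) higher, 5 (12.5%, beside 29.1%) lower and 5 that did not pass. The median log2 change was 0.71 with both drugs and -0.02 with TNF-α alone. At least 2-fold higher were 17 members, beside 5.72% of all genes. HMOX1, heme oxygenase 1, had 9130, 10425 and 9334 counts with both drugs, 8, 5 and 10 counts with TNF-α alone and 15, 17 and 7 counts in untreated cells. In CPM this was 529, 569 and 519.7 with both drugs and 0.935, 0.944 and 0.417 in untreated cells (log2 change 9.44 ± 0.11 (SE), adjusted p = 1.2e-31). MCL alone beside TNF-α gave 63.7 ± 4.71 CPM and ruxolitinib 0.529 ± 0.317 CPM (SD, n = 3 each), so the level with both drugs was above that of MCL by 3.08 ± 0.06 (SE) on the log2 scale (adjusted p = 4.68e-26).

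SLC7A11, the cystine importer, had 263, 263 and 274 CPM with both drugs and 8.29, 8.94 and 8.52 CPM in untreated cells (log2 change 4.95 ± 0.06 (SE), adjusted p = 3.72e-59). GCLM, a subunit of the first enzyme of glutathione synthesis, had 179, 185 and 168 CPM with both drugs, 10.8, 12.8 and 11.6 CPM with TNF-α alone and 13.3, 12.4 and 11.6 CPM in untreated cells (log2 change 3.83 ± 0.07 (SE), adjusted p = 4.61e-49). OSGIN1, an oxidative stress gene, had a log2 change of 5.95. NQO1, a quinone reductase, had 22.9, 23.7 and 25.2 CPM with both drugs and 2.37, 2.22 and 1.79 CPM in untreated cells, and TXNRD1, thioredoxin reductase, had 772, 762 and 785 CPM and 236, 218 and 228 CPM. For NQO1 both drugs and MCL did not differ past the threshold (log2 difference 0.08 ± 0.10 (SE), adjusted p = 0.576, 95% interval -0.12 to 0.28), and for GCLM both drugs were higher than MCL by 0.82 ± 0.05 (SE). The ferritin genes FTH1 and FTL, the small MAF gene MAFG and NFE2L2, which encodes NRF2, were higher by 1.89, 1.23, 2.46 and 1.13. The 5 lower members were ABCC1, MGST1, TXNDC17, ABCC4 and PRDX1, between -0.82 and -0.11.

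GCLM has an antioxidant response match in its promoter, shown because the gene rose with both drugs and not with TNF-α alone. It is chr1:93909431-93909494 on the minus strand of GRCh38.p14 from RefSeq, with the match to TGACNNNGC, here on the opposite strand, in capitals.
GCLM: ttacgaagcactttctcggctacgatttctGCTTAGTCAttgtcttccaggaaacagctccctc
The motif is loose: it was found at 12 of 43 starts of the NRF2 list (27.9%) and at 2110 of 14460 starts of all tested protein-coding genes (14.6%).

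Heat shock genes rose in 27 of 35 tested members (77.1%, beside 28.3% of all genes), of 38 listed. Lower were 6 (17.1%, beside 29.1%), and 2 did not pass. The median log2 change was 0.48 with both drugs and -0.05 with TNF-α alone. HSPA1B, an inducible HSP70, had 487, 504 and 470.2 CPM with both drugs, 21.8, 22.8 and 24.2 CPM with TNF-α alone and 28.1, 29.1 and 30.6 CPM in untreated cells (log2 change 4.06 ± 0.05 (SE), adjusted p = 2.16e-60). HSPA1A is a near-identical copy, so the split of reads between them is uncertain; it had 61.1, 68.7 and 40.9 CPM with both drugs and 0.998, 1.83 and 1.73 CPM in untreated cells. With MCL HSPA1B averaged 91.1 CPM and with ruxolitinib 17.5 CPM, with 29.3 CPM in untreated cells, and both drugs together were above MCL by 2.42 ± 0.04 (SE) on the log2 scale. DNAJB4 and DNAJB1, cochaperones of HSP70, had log2 changes of 4.27 and 2.71, BAG3, a cofactor of HSP70, 2.72, and HSPH1, an HSP110, 1.66. HSP90AA1, the inducible HSP90, had 4029, 4071 and 4263 CPM with both drugs and 1631, 1657 and 1727 CPM in untreated cells (log2 change 1.30 ± 0.03 (SE), adjusted p = 1.2e-43). HSF1, the factor of the response, did not pass as a transcript (-0.02, adjusted p = 0.688). Lower members included SERPINH1, the collagen chaperone, and FKBP4, with -0.60 and -0.31.

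The promoter of HSP90AA1 is shown as an abundant list member with a match to the heat shock element, chr14:102087090-102087162 on the minus strand of GRCh38.p14 from RefSeq, before 1 of its 2 starts in the table, with the match in capitals.
HSP90AA1: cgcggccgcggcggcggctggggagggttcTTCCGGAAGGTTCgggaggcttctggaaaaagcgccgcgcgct
The element was searched as 3 alternating blocks of GAA and its reverse complement, 2 free bases apart, and was found at 9 of 51 starts of the heat shock list (17.6%) and at 50 of 14460 starts of all tested protein-coding genes (0.346%).

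Genes of ATF4 and the integrated stress response were the most uniform of the rising lists. Of 38 tested members (45 listed), 34 (89.5%, beside 28.3% of all genes) were higher, 2 lower and 2 did not pass. The median log2 change was 0.82 with both drugs and 0.07 with TNF-α alone. CHAC1, a glutathione-degrading enzyme, had 143, 148 and 134 CPM with both drugs, 14.9, 14.4 and 15.3 CPM with TNF-α alone and 9.91, 10.2 and 9.53 CPM in untreated cells (log2 change 3.84 ± 0.07 (SE), adjusted p = 3.59e-49). DDIT4, an inhibitor of the growth kinase complex mTORC1, had 68.7, 80.02 and 74.4 CPM with both drugs and 5.67, 7.67 and 5.18 CPM in untreated cells (log2 change 3.58 ± 0.09 (SE), adjusted p = 9.84e-41). ATF3, DDIT3, the factor CHOP, and SESN2, another mTORC1 brake, had log2 changes of 3.32, 2.75 and 2.64. ATF4 itself had 665, 686 and 704 CPM with both drugs and 355, 349 and 362 CPM in untreated cells (log2 change 0.95 ± 0.03 (SE), adjusted p = 2.89e-34). For CHAC1, DDIT4 and SESN2 both drugs were above MCL by 1.51, 1.75 and 1.53 on the log2 scale (adjusted p 2.47e-32, 2.05e-28 and 3.01e-32). The amino acid transporter SLC38A2 and the serine synthesis enzyme PHGDH had 1.46 and 0.79. GDF15, a secreted stress cytokine, and STC2, a stanniocalcin, were lower (-1.16 and -0.27), and TRIB3, a pseudokinase that ATF4 induces, lay close to untreated cells (log2 change -0.02, 95% interval -0.14 to 0.10).

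CHAC1 carries the composite element of ATF4 in its promoter, chr15:40953232-40953299 on the plus strand of GRCh38.p14 from RefSeq, with the match to TGATGNAA, here on the opposite strand, in capitals.
CHAC1: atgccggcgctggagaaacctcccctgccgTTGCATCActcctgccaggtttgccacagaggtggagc
The element was found at 7 of 40 starts of the ATF4 list (17.5%) and at 289 of 14460 starts of all tested protein-coding genes (2.0%).

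Ribosome biogenesis and other MYC targets formed the most uniform falling list. Of 53 tested genes, 52 (98.1%, beside 29.1% of all genes) were lower with both drugs, and 1, NOP2, did not pass, so that all 53 log2 changes were negative, with a median log2 change of -0.51 with both drugs and -0.13 with TNF-α alone. With TNF-α alone 30 of the 53 were lower, beside 12.5% of all genes. RRS1, a ribosome assembly factor, had 25.5, 28.2 and 26.9 CPM with both drugs and 93.2, 91.4 and 94.6 CPM in untreated cells (log2 change -1.79 ± 0.06 (SE), adjusted p = 4.75e-37). RRP1B, which processes ribosomal RNA, had 85.3, 95.1 and 95.5 CPM and 228, 224 and 233 CPM (log2 change -1.31 ± 0.04 (SE), adjusted p = 8.27e-37), and POLR1B, a subunit of RNA polymerase I, had a log2 change of -1.17. PPARGC1B, a coactivator of mitochondrial genes on the same list, had 12.1, 12.2 and 9.85 CPM with both drugs, 86.97, 90.8 and 89.999 CPM with TNF-α alone and 52.1, 57.1 and 51.3 CPM in untreated cells (log2 change -2.23 ± 0.07 (SE), adjusted p = 4.63e-36). The smallest falls were those of NPM1 and RRN3, at -0.09 and -0.11. Under scaling by library totals 49 of the 53 were lower.

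ERK feedback and immediate-early genes were lower in 24 of 42 tested members (57.1%, beside 29.1% of all genes), of 44 listed. Higher were 9 (21.4%, beside 28.3%), and 9 did not pass, with a median log2 change of -0.40. DUSP7, a phosphatase of ERK, had 17.1, 17.6 and 20.8 CPM with both drugs and 85.6, 79.3 and 80.3 CPM in untreated cells (log2 change -2.14 ± 0.06 (SE), adjusted p = 2.18e-37). HBEGF, a growth factor of the EGF family, and FOSL2, a subunit of AP-1, had log2 changes of -2.32 and -1.82. DUSP6, a common readout of ERK, was only slightly under untreated cells, with 66.4, 60.4 and 62.02 CPM with both drugs and 79.4, 77.8 and 78.7 CPM in untreated cells (log2 change -0.32 ± 0.05 (SE), adjusted p = 1.87e-07). Ruxolitinib alone beside TNF-α gave 33.99 CPM, so both drugs were above ruxolitinib for this gene by 0.89 ± 0.06 (SE) on the log2 scale. EGR1, an immediate-early factor, had 3.59, 2.84 and 3.17 CPM with both drugs and 4.86, 4.39 and 3.75 CPM in untreated cells and did not pass (log2 change -0.44 ± 0.20 (SE), adjusted p = 0.0606; it passes when only the 2 groups are fitted). Higher members included DUSP8, PHLDA1, KLF4 and IER5, with 1.75, 1.73, 1.64 and 1.59.

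Genes of the erythroid and megakaryocyte lineage, among them its transcription factors, were mostly under the untreated level. Of 23 tested genes of that list (35 listed), 19 (82.6%, beside 29.1% of all genes) were lower, 2 higher and 2 did not pass. The median log2 change was -0.58 with both drugs and -0.20 with TNF-α alone. The haematopoietic markers as a whole were lower too, as given above, and their part in this result was not tested. GATA2, a factor of blood progenitors, had 120.2, 137 and 127 CPM with both drugs, 553, 553 and 547 CPM with TNF-α alone and 486, 482 and 486 CPM in untreated cells (log2 change -1.92 ± 0.04 (SE), adjusted p = 2.07e-48). LYL1, a blood factor related to TAL1, had 67.4, 67.9 and 63.6 CPM with both drugs and 302, 298 and 299 CPM in untreated cells (log2 change -2.18 ± 0.04 (SE), adjusted p = 1.83e-48). NFE2, which drives platelet formation, TAL1 and GATA1 fell by 2.42, 1.26 and 1.00 on the log2 scale. The higher members were 2 platelet genes of small change, SELP, the gene of P-selectin (0.24), and the chemokine PPBP (0.20).

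Genes of the BCL2 family and cell death showed no shared direction: 12 of 34 tested members (36 listed) were higher (35.3%), 12 lower (35.3%) and 10 did not pass, near the 30.9% higher and 32.9% lower of all tested protein-coding genes. PMAIP1, the death-promoting protein NOXA, had 187, 193 and 190.2 CPM with both drugs, 45.6, 45.9 and 44.7 CPM with TNF-α alone and 34.7, 37.4 and 32.99 CPM in untreated cells (log2 change 2.44 ± 0.05 (SE), adjusted p = 4.04e-47). BBC3, the related protein PUMA, and BMF had log2 changes of 1.28 and 1.47. BMF averaged 22.05 CPM with both drugs, 35.9 CPM with MCL, 78.9 CPM with ruxolitinib, 43.1 CPM with TNF-α alone and 7.995 CPM in untreated cells, so both drugs were lowest of the 4 groups with TNF-α. Lower members included BCL2L1, described above, MLKL, the effector of necroptosis (-1.49), and FADD, the adaptor of death receptors (-1.33). CASP9, the caspase of the mitochondrial path, was higher (0.95), and CASP8, the caspase of death receptors, did not pass (-0.01, adjusted p = 0.865).

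Autophagy and lysosome genes were higher in 23 of 34 tested members (67.6%, beside 28.3% of all genes), of 36 listed. Lower were 2, ATG16L1 and ATG101, and 9 did not pass. The median log2 change was 0.42 with both drugs and 0.06 with TNF-α alone. Beside SQSTM1, the autophagy receptor OPTN had 81.9, 81.4 and 81.8 CPM with both drugs and 19.5, 20.4 and 20.5 CPM in untreated cells (log2 change 2.02 ± 0.06 (SE), adjusted p = 2.04e-39). TFE3, a factor that drives lysosomal genes, had 136, 140.2 and 137 CPM with both drugs and 36.6, 33.5 and 32.5 CPM in untreated cells (log2 change 2.01 ± 0.05 (SE), adjusted p = 5.31e-41). ULK1, the kinase that starts autophagy, and GABARAPL1, an ATG8 protein, had log2 changes of 1.47 and 2.39.

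**Figure D4:**
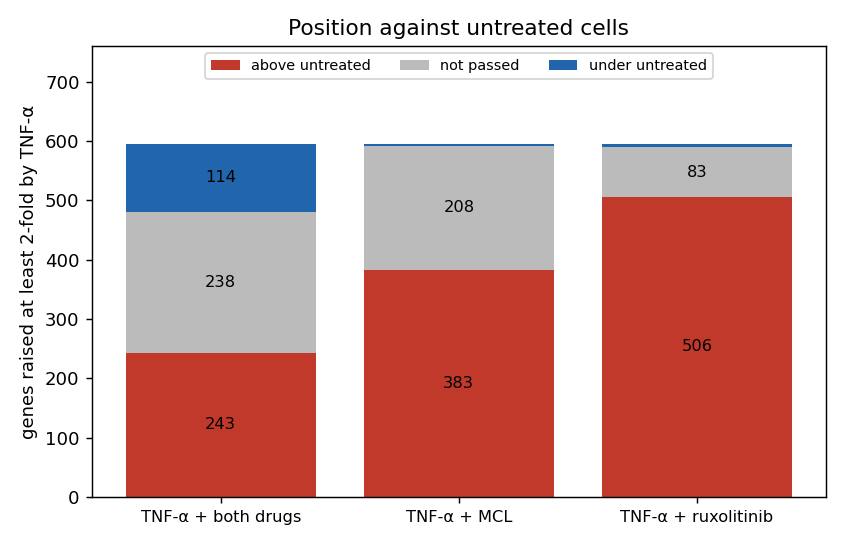
Stacked counts of the 595 genes that TNF-α raised at least 2-fold (y axis, number of genes, from 0), by their position against the same untreated libraries in cells with TNF-α and both drugs, MCL or ruxolitinib. The genes under untreated cells number 114 with both drugs, 4 with MCL and 6 with ruxolitinib.

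More of the TNF-α raised genes lay under the untreated level with both drugs than with either drug alone. Of the 595 genes, 243 were above untreated cells with both drugs, 383 with MCL and 506 with ruxolitinib, and 114, 4 and 6 were under them (of the 16146 genes tested, MCL had 17.2% above and 16.9% under untreated cells, and ruxolitinib 17.8% above and 19% under). The median log2 change over untreated cells was 0.39 with both drugs, 0.98 with MCL and 1.48 with ruxolitinib. All 3 comparisons share the untreated libraries, and the counts are given side by side without a test between them. Against MCL, both drugs were higher in 19.6% and lower in 22% of genes tested, and against ruxolitinib higher in 24.8% and lower in 26.8%. Single genes were tested in those comparisons: ICAM1 averaged 42.98 CPM with both drugs, 173 CPM with MCL and 379 CPM with ruxolitinib, and both drugs were lower than each (log2 differences -2.01 ± 0.04 (SE), adjusted p = 2.31e-44 against MCL and -3.14 ± 0.04 (SE), adjusted p = 2.74e-56 against ruxolitinib). TNFAIP2 averaged 232, 804 and 1899 CPM in those groups, with log2 differences of -1.79 ± 0.03 and -3.03 ± 0.03 (SE).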

How the data were processed

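RNA of 15 libraries was sequenced by the authors, who deposited unnormalized counts of reads for 58735 genes. Per the submitters' processing notes, the tools were HISAT2 2.0.5, featureCounts 1.5.0-p3 and DESeq2 1.16.1, with hg38 and mm10 named as builds. How the counting used strand is not stated in the sources used, so reads of genes that overlap on opposite strands cannot be told apart. The control columns stand for the untreated cells.

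The filter filterByExpr of edgeR 4.0.16 (R 4.3.3), with a minimum count of 10, kept 16146 genes and removed 42589. After TMM scaling, 1 coefficient a group was fitted to the 15 libraries together, leaving 10 residual degrees of freedom. The 7 comparisons of 2 groups used the quasi-likelihood test with robust estimation, and p-values were adjusted by Benjamini and Hochberg's method across all genes tested. A standard error is the size of the log2 change over the square root of F. Levels are CPM with TMM factors. A share of a TNF-α rise kept is the difference in mean CPM of both drugs and untreated cells over that of TNF-α alone and untreated cells. Most named genes were protein-coding, passed, did not overlap between the groups and averaged at least 5 CPM in the higher group. They were taken by rank of the change within each set and list. The genes close to untreated cells did not pass and were named by their TNF-α response. A panel of pathway genes and other list members were added outside these limits, such as OSM with its low level. Members, lists and rules were chosen with earlier results of these data known. Alternatives were other scalings, no filter, DESeq2 1.42.0, fits of fewer groups, a replicate block, other limits and leaving out each library. The procedure was tested on simulated data. Within groups, libraries differed by more than sampling noise (chi-square over degrees of freedom of 2.02 or more), so none was treated as a copy.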

Additional observations from a re-analysis of the deposited data

How the results depend on the processing

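Other scalings (DESeq2 size factors, library totals), no filter on low counts, DESeq2's test, a fit of fewer groups and a replicate block turned the direction of no named gene that passed. The number of genes lowered by TNF-α and above untreated cells with both drugs was 2 in place of 1 under DESeq2 size factors, library totals, no filter, DESeq2 and the replicate block; without the filter 44 of the lowered genes did not pass. With a limit of 1.5-fold for raised and lowered, 439 raised genes were above, 204 under and 42 close, and 15 lowered genes were above, 212 under and 70 did not pass. With no limit of size, 1112 raised genes were above, 536 under, 627 did not pass and 280 were close, and 237 lowered genes were above, 1402 under and 378 did not pass. A margin of 1.5-fold gave 39 close genes. Leaving out 1 library at a time gave 4257 to 4435 genes higher and 4343 to 4460 lower. Of the raised genes, 233 to 250 were then above, 98 to 109 under, 229 to 277 did not pass and 13 to 20 were close. Of the lowered genes, 1 to 3 were above, 41 to 51 under and 28 to 34 did not pass. Of the genes TNF-α did not change, 1732 to 1832 were above, 1413 to 1503 under, 1714 to 1809 close and 1940 to 2096 did not pass. Scaling by library totals gave 5063 genes higher and 4242 lower, so that 54.4% of the passing genes were higher, beside 49.3%, and the G2/M genes had 15 higher and 11 lower. All 177 genes named or listed for naming kept their call under both other scalings, no filter, DESeq2 and the replicate block. SOCS1 and EGR1 passed with only the groups compared (-0.82 and -0.44), and without the first library with both drugs (-1.32 and -0.53), SOCS1 also without the second untreated library (-0.98) and EGR1 without the third (-0.53). SOCS1 was -0.50 without the third library with both drugs. DDX58 passed without the second library with both drugs (-0.19) and SH3TC1 without the first untreated library (-0.22). ITGAM, a monocyte marker, passed in the fit of all libraries and not in 3 of those leaving 1 out (-0.26 to -0.31). Libraries with the same number correlated weakly in their deviations from the group mean (r of 0.0302 to 0.0344), and those with different numbers had r of -0.0221 to -0.00977. Each library thus correlated best with its own number, a hint from the data and not the design. Whether the numbers pair the libraries is not settled by these small values. With the block 4587 genes were higher and 4711 lower. The part of depth and of replicate number in the 224 unresolved raised genes was not tested.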

Other observations

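Of all tested protein-coding genes, 30.9% were higher and 32.9% lower with both drugs than in untreated cells, and the list counts of this section are to be read beside these shares. Of 38 genes of DNA replication and E2F, 21 were lower with both drugs, 7 higher and 10 did not pass, with a median log2 change of -0.16; the largest was UHRF1, a keeper of DNA methylation, with 109, 107 and 115 CPM with both drugs and 227, 248 and 230.0 CPM in untreated cells (log2 change -1.09 ± 0.04 (SE), adjusted p = 3.09e-32). PCNA, the sliding clamp, had a log2 change of -0.37. Of 35 G2/M and mitosis genes 12 were higher, 12 lower and 11 did not pass, with a median of 0.00 that turns to 0.04 under scaling by library totals; CCNA2, cyclin A2, was at -0.40 and the phosphatase CDC25C at 0.73.

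Transcripts of the mitochondrial chromosome were lower in 12 of 15 genes and higher in 2, both ribosomal RNAs. MT-RNR1 had 1519.9, 1456 and 1573 CPM with both drugs and 782, 711 and 736 CPM in untreated cells, whereas MT-ND2, a subunit of complex I, had 1111, 1133 and 1231 CPM and 2076, 2067 and 2072 CPM. Glycolysis and hypoxia response genes were lower in 15 of 29, led by the glucose transporters SLC2A3 (-1.98) and SLC2A1 (-1.16) and by hexokinase HK2 (-1.03), and higher in 8, among them the growth factor VEGFA (0.93). Sterol and fatty acid synthesis genes were higher in 17 of 29, with small changes, such as MSMO1, an enzyme of late cholesterol synthesis (0.60), and lower in 6, such as FASN, fatty acid synthase (-0.12).

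Unfolded protein response genes were higher in 14 of 28 members and lower in 4, with a median log2 change of 0.15 and HERPUD1 (1.54) and DNAJB9 (1.37) at the top. Antigen presentation genes were higher in 9 of 28 (32.1%), lower in 5 (17.9%), and did not pass in 14, with a median of -0.02 that turns to 0.02 under scaling by library totals; CIITA, the master regulator of class II genes, had 25.4, 24.6 and 23.4 CPM with both drugs, 159.8, 158 and 159.8 CPM with TNF-α alone and 55.8, 55.3 and 53.2 CPM in untreated cells (log2 change over untreated cells -1.16 ± 0.05 (SE), adjusted p = 5.12e-28). Of 24 p53 targets 13 were higher and 6 lower, with CDKN1A at 0.20, MDM2 at 0.40 and ZMAT3 at -1.40.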
